A study of Mus musculus with 8 samples.

Results

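Genes that keep spermatogonial stem cells or start their differentiation were followed in RNA from whole testes of mice with and without a deletion in Tmem232. The members were Gfra1, Zbtb16, Sall4, Id4, Etv5 and Lin28a, which mark stem and undifferentiated spermatogonia, and Kit, Sohlh1, Sohlh2 and Dmrt1, which take part in differentiation. They were chosen by gene symbol, and all 10 were found among the 19906 genes of the table. The series holds 8 libraries from mice aged 2 months, 4 labelled Tmem232-/- and 4 labelled Tmem232+/+, with 1 library per mouse. The knockout was made by CRISPR-Cas9 injection into C57BL/6 oocytes, and the deleted fragment carries several coding exons and shifts the reading frame. The sources do not state from how many founders the knockout mice descend or whether the controls are littermates. Sall4 and Sohlh1 were lower in the libraries labelled Tmem232-/-, by 28.2% and 31.6%, and the other 8 members did not pass the test. Of all tested genes, 1.46% were called lower and 10.3% higher. The call of Sall4 ended in 6 and that of Sohlh1 in 9 of 19 alternative analyses, and both ended without any single one of replicates 1 and 3 under the knockout label and replicates 1 and 2 under the wild-type label. The difference itself had the same direction in all 19 for both genes.

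Spermatogonia lie on the basement membrane of the seminiferous tubule and are the cells from which all later germ cells derive. Sertoli cells secrete GDNF, which binds the co-receptor encoded by Gfra1 and signals through the receptor tyrosine kinase Ret, and Etv5 is a transcription factor of the ETS family that responds to this signal. Id4 encodes an inhibitor of helix-loop-helix factors that marks stem cells, Zbtb16 (also known as Plzf) and Sall4 encode zinc finger proteins needed for their maintenance, and Lin28a encodes an RNA-binding protein that restrains the maturation of let-7 miRNAs. When retinoic acid acts, the cells gain the receptor Kit, whose ligand is made by Sertoli cells. Sohlh1 and Sohlh2 encode helix-loop-helix factors that bind E-boxes and are required for differentiation, and Dmrt1 encodes a DM domain factor that acts in spermatogonia before they enter meiosis. Dmrt1, Id4 and Etv5 are also transcribed in Sertoli cells, and Kit also in Leydig cells, mast cells and, as a truncated form, in spermatids, so a level in whole testis is a sum over these cells.

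Promoter sequences are shown for Sohlh1, a called member whose product binds E-boxes, for its partner Sohlh2, and for Gfra1, whose level lay on the other side. They run 5′ to 3′ from 250 bases before to 50 bases after the annotated start, come from RefSeq on GRCm38.p6, and have the E-box letters CANNTG in capitals. The Sohlh1 window is chr2:25847199-25847498 on the minus strand, the Sohlh2 window chr3:55181794-55182093 on the plus strand, and the Gfra1 window chr19:58455349-58455648 on the minus strand.
Sohlh1: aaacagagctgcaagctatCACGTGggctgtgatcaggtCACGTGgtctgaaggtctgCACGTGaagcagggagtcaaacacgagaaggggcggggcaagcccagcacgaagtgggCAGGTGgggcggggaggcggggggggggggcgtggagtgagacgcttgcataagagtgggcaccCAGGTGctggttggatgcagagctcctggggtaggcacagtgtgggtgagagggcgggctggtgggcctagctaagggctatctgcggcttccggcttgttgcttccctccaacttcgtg
Sohlh2: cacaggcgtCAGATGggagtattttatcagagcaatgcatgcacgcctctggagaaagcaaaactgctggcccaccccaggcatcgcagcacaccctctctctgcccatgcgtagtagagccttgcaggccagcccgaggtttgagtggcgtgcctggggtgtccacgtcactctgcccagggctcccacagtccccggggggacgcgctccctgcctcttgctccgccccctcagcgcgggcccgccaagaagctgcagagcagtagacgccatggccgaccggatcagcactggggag
Gfra1: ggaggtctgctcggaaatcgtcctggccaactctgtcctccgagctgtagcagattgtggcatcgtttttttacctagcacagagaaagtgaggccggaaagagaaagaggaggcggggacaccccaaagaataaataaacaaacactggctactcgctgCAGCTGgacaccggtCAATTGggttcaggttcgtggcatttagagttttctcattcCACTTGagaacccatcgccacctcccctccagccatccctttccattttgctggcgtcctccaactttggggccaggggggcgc

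The Sohlh1 window holds 5 E-boxes, of which 3 read CACGTG and 2 read CAGGTG. They begin 231, 211, 192, 134 and 70 bases before the start. At least 1 E-box is found in 72.3% of the 32851 windows of this length in the RefSeq table and at least 5 in 2.1%. At least 3 copies of CACGTG are found in 0.0883% of the windows, which are 29 windows. The Sohlh2 window holds 1 E-box and the Gfra1 window 3, a number reached in 17.6% of all windows. All motifs were searched as letters on both strands, and CANNTG includes CACGTG and CAGGTG. The letters ACANTGT, the core bound by DMRT1, were matched 1 time in the Sohlh1 window and not in the other windows of members, without overlap with an E-box, and are found in 7.54% of all windows. The letters CCGGAA, which ETS factors such as ETV5 bind, were matched 1 time each in the windows of Sohlh1 and Gfra1, and 14.9% of all windows hold them on either strand. In all, 9 windows of 7 members were in the RefSeq table, and those of Id4, Lin28a and 1 of the 2 Etv5 starts hold no E-box. Windows of Zbtb16, Sall4 and Dmrt1 were not used here. These matches describe letters in a window and carry no measurement of binding.

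The libraries held between 15428421 and 16350871 counts each. Levels are given as counts per 1000000 counts after TMM scaling (CPM), where TMM is a scaling between libraries that leaves out extreme genes, and differences as log2 fold changes of the libraries labelled Tmem232-/- over those labelled Tmem232+/+. They were tested with the quasi-likelihood test of edgeR, with p-values adjusted over the 15787 genes left by its low-count filter. A gene was called at an adjusted p under 0.05. All 10 members passed the filter, with between 52 counts for Sohlh1 in 1 library and 1204 for Dmrt1. Of all tested genes, 1.46% were called lower (230 genes) and 10.3% higher (1633 genes). With TMM computed on somatic genes these numbers were 32 and 1520. The median log2 fold change of all tested genes was -0.05. Tmem232 itself read 148, 132, 123 and 122 CPM in replicates 1 to 4 labelled Tmem232-/- and 111, 106, 108 and 110 CPM in those labelled Tmem232+/+. This count covers the whole gene and lies higher in the libraries labelled as knockouts (log2 fold change 0.27 ± 0.07 SE, adjusted p = 0.0335), and, as a total that includes the exons outside the deletion, it is no test of the labels. Directions below follow the labels. The call of Tmem232 ended in 6 of 19 alternative analyses, with an adjusted p of 0.179 with TMM on somatic genes, 0.0858 and 0.086 without replicates 1 and 2 labelled Tmem232-/-, and 0.0888 and 0.0892 without replicates 2 and 4 labelled Tmem232+/+. Its log2 fold change lay between 0.21 and 0.32 over all 19. Markers of spermatids moved with the genotype. All 12 of 12 were called higher, with summed levels of 1522 to 2383 CPM against 437 to 789 CPM. Prm1, a protamine of condensing spermatids, lay at 44.3 to 132 CPM against 1.63 to 7.54 CPM, and the transition protein gene Tnp1 at 36.7 to 90.6 against 2.72 to 10.01 CPM. Under the wild-type label both genes were thus low, with 27 counts of Prm1 in replicate 2. The reason for these low wild-type levels in mice aged 2 months was not tested. Spermatocyte markers summed to 6118 to 6962 CPM against 6354 to 6794 CPM. Of these 12 markers, 9 lay below 0, and by all 3 tools (edgeR, DESeq2 and limma-voom) Dmc1, a recombinase gene of early meiosis, was called lower (log2 fold change -0.34, edgeR adjusted p = 0.0186) and Pgk2, a glycolytic gene of later germ cells, higher (0.51, adjusted p = 7.19e-04). Both were named after their values were seen. The call of Dmc1 ended with TMM on somatic genes (adjusted p = 0.22) and without replicate 2 labelled Tmem232-/- (0.0683) or replicate 2 or 4 labelled Tmem232+/+ (0.0603 and 0.0645). In these fits its log2 fold change lay between -0.33 and -0.28. The 12 Sertoli cell markers summed to 1879 to 2426 CPM against 2205 to 2334 CPM. None of the Sertoli cell markers was called by edgeR, DESeq2 or limma-voom, and 2 were lower at an unadjusted p under 0.05, as were 10.5% of all tested genes. Of these 12 markers, 11 had a log2 fold change below 0, with a median of -0.12 against -0.05 for all tested genes. In whole testis, fewer cells of a type and less RNA per cell cannot be told apart, and the part of the spermatid rise in the differences below was not tested.

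**Figure D1:**
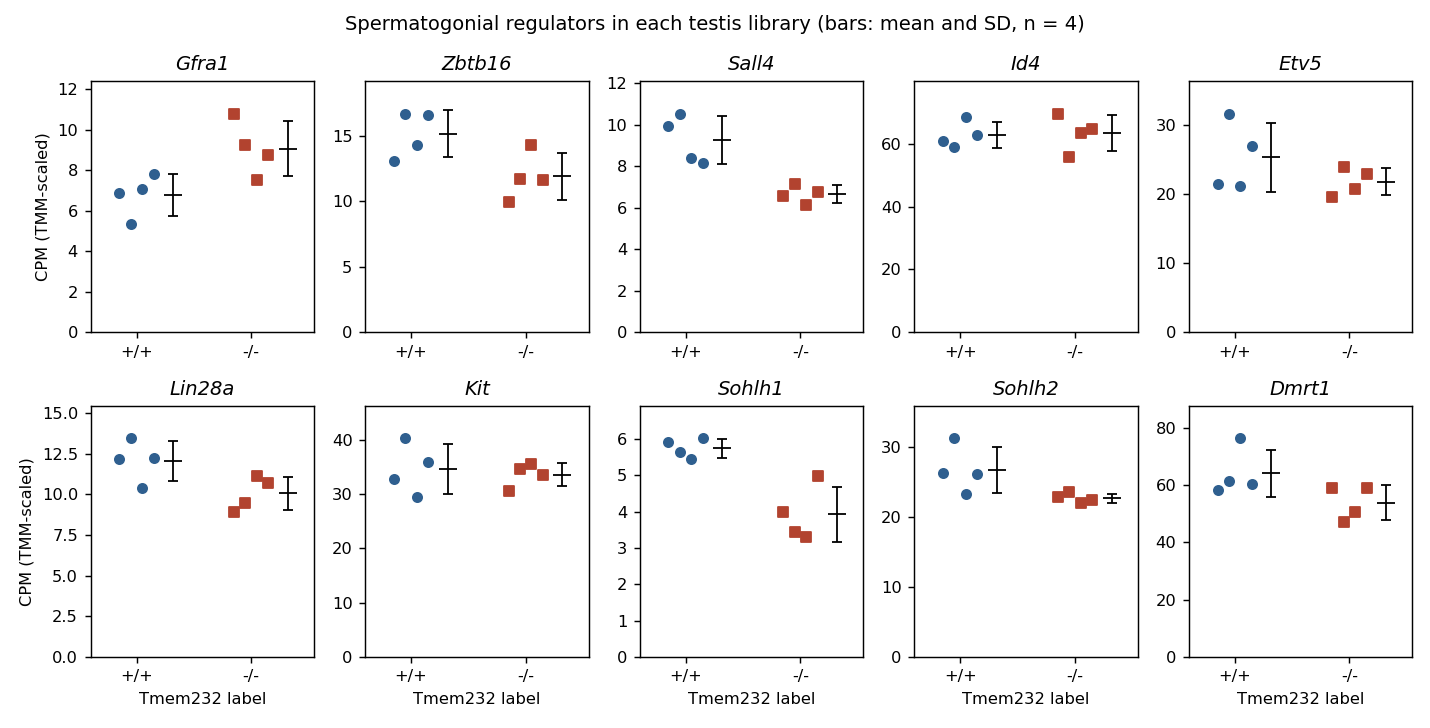
CPM of each of the 10 regulators (vertical axis, starting at 0, scale differing between panels) in the 4 libraries labelled Tmem232+/+ (blue circles) and the 4 labelled Tmem232-/- (red squares), in the order of replicates 1 to 4, with the mean and SD of each group in black. The points of the groups are apart for Sall4 and Sohlh1 and overlap for the other 8 genes.

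Sall4 was the stem cell gene that fell. It (Entrez ID 99377, chr2:168748332-168767201 on the minus strand of GRCm38.p6) read 6.59, 7.16, 6.13 and 6.76 CPM in replicates 1 to 4 labelled Tmem232-/- and 9.97, 10.5, 8.42 and 8.17 CPM in those labelled Tmem232+/+. All 4 values of the first group lay below all 4 of the second, and the group labelled Tmem232-/- was the narrower one, with an SD of 0.42 CPM against 1.16 CPM (n = 4 each). The difference was -0.48 ± 0.12 on the log2 scale (SE, adjusted p = 0.0227), and its 95% interval reached from -0.74 to -0.21. In an exact two-sided permutation test of CPM over the 70 arrangements of the 8 libraries, p was 0.0286, the smallest this design can give. Values of each group that did not overlap in this direction were found for 6.88% of all tested genes. The counts behind Sall4 lay between 97 and 174 per library. The call ended when 1 of 4 libraries was left out, with an adjusted p of 0.0595 and 0.0712 without replicates 1 and 3 labelled Tmem232-/- and 0.101 and 0.0752 without replicates 1 and 2 labelled Tmem232+/+. It also ended with TMM computed on somatic genes (log2 fold change -0.43, adjusted p = 0.0708). The factors of this scaling came from the listed markers of Sertoli, Leydig and peritubular myoid cells. Among these markers, Actg2 was called higher and Acta2 and Myh11 lower by edgeR. Without a library, the log2 fold change of Sall4 lay between -0.53 and -0.40 in all 8 cases.

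Zbtb16 lay lower in most libraries labelled Tmem232-/- but was not called. Its levels were 9.98, 11.7, 14.3 and 11.7 CPM in replicates 1 to 4 of that group and 13.1, 16.7, 14.3 and 16.6 CPM in the libraries labelled Tmem232+/+. Replicate 3 labelled Tmem232-/- stood among the wild-type values, and the other 3 lay below all of them. Its log2 fold change was -0.35 ± 0.13 (SE, adjusted p = 0.112), with an interval from -0.63 to -0.07. Without replicate 3 labelled Tmem232-/- it was -0.45 and the adjusted p was 0.0489, which made it a call. The gene (Entrez ID 235320, chr9:48651797-48837264) is listed on the plus strand in the table and on the minus strand in GENCODE M21. The same holds for Gfra1, and the strands differ for 13.9% of the 19259 genes that could be matched by symbol. The gene model of Zbtb16 in the table joins 9 transcripts, of which 7 come from catalogues other than RefSeq, and that of Gfra1 joins 18, with 10 from such catalogues. The sources do not state that strand was used in counting, so RNA from the opposite strand cannot be told apart in these genes.

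Gfra1 was the member with the highest log2 fold change, and it was not called. The gene (Entrez ID 14585, chr19:58204139-58455946) read 10.8, 9.23, 7.53 and 8.73 CPM in replicates 1 to 4 labelled Tmem232-/- and 6.85, 5.33, 7.09 and 7.80 CPM in those labelled Tmem232+/+. The groups crossed at a single point, replicate 3 of the first lying below replicate 4 of the second. On the log2 scale the difference was 0.42 ± 0.15 (SE, adjusted p = 0.101), with an interval from 0.09 to 0.75. It kept its sign in all 19 alternative analyses and was called in none, with adjusted p-values from 0.0683 to 0.24. On log2 of FPKM plus 1, a scale that understates low genes, it was 0.25. Ret, the signalling partner of the Gfra1 product, was chosen for display after its values were seen. It read 1.93, 1.95, 2.91 and 2.46 CPM in the libraries labelled Tmem232-/- and 5.36, 3.33, 2.72 and 3.62 CPM under the wild-type label. Its difference of -0.70 ± 0.23 (SE) on the log2 scale was not called (adjusted p = 0.0808). Without replicate 3 labelled Tmem232+/+ the adjusted p of Ret was 0.0358. The number of Gfra1 counts per count of Ret was 5.59, 4.74, 2.59 and 3.55 in replicates 1 to 4 of the knockout label and 1.28, 1.6, 2.6 and 2.15 in those of the wild-type label. The genes of the receptor pair thus lay on opposite sides, and the ratio overlapped between the groups in replicate 3 of each. This ratio was picked after the values of both genes were known and has no test.

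Etv5, the ETS factor downstream of GDNF, read 19.6, 23.9, 20.7 and 23.0 CPM in the libraries labelled Tmem232-/- and 21.5, 31.7, 21.2 and 27.0 CPM in those labelled Tmem232+/+. Replicates 2 and 4 of the second group were high, and replicates 1 and 3 lay within the range of the first. Etv5 differed by -0.22 ± 0.13 on the log2 scale (SE, adjusted p = 0.346), with an interval from -0.51 to 0.08, and by -0.09 without replicate 2 labelled Tmem232+/+. Gdnf itself had between 20 and 37 counts per library and a log2 fold change of -0.16 ± 0.23 (SE, adjusted p = 0.702).

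Id4 was the member with the highest level per length and the smallest difference. It read 69.6, 55.7, 63.4 and 64.6 CPM in the libraries labelled Tmem232-/- and 60.8, 59.0, 68.5 and 62.8 CPM in those labelled Tmem232+/+, so that the groups covered nearly the same range. With 888 to 1081 counts per library, the log2 fold change was 0.01 ± 0.08 (SE, adjusted p = 0.938), and the interval from -0.16 to 0.19 bounds the difference. The sign turned negative with library size alone, with FPKM and without 1 of 2 libraries. Lin28a read 8.92, 9.48, 11.1 and 10.7 CPM in the libraries labelled Tmem232-/- and 12.2, 13.4, 10.4 and 12.2 CPM in those labelled Tmem232+/+. Replicate 3 of the wild-type label lay within the other group, and the log2 fold change was -0.26 ± 0.11 (SE, adjusted p = 0.186). Its paralog Lin28b, with 333 to 429 counts per library, had a log2 fold change of -0.07 ± 0.09 (SE, adjusted p = 0.694).

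Sohlh1 was the differentiation gene that fell. It is a short gene (Entrez ID 227631, chr2:25842995-25847248 on the minus strand of GRCm38.p6) and read 3.99, 3.45, 3.29 and 4.98 CPM in replicates 1 to 4 labelled Tmem232-/- and 5.92, 5.63, 5.45 and 6.02 CPM in those labelled Tmem232+/+. The wild-type values lay close together, with an SD of 0.26 CPM, and all above the others, whose SD was 0.76 CPM (n = 4 each). Its log2 fold change was -0.55 ± 0.15 (SE, adjusted p = 0.0351), with an interval from -0.88 to -0.22, and the exact two-sided permutation p was 0.0286, again the smallest possible. The gene had the fewest counts of the members, 52 to 98 per library. The call was lost in 7 of the 8 analyses that left out a library. The adjusted p was 0.0774, 0.111 and 0.0994 without replicates 1, 2 and 3 labelled Tmem232-/- and 0.11, 0.0721, 0.051 and 0.0979 without replicates 1 to 4 labelled Tmem232+/+, while it was 0.0072 without replicate 4 labelled Tmem232-/-, the highest value of its group. Without the filter on low counts it was 0.0558. Its log2 fold change without a library lay between -0.67 and -0.47 in all 8 cases.

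Sohlh2, whose product pairs with that of Sohlh1, differed less. It read 22.8, 23.5, 21.9 and 22.4 CPM in the libraries labelled Tmem232-/- and 26.4, 31.2, 23.2 and 26.2 CPM in those labelled Tmem232+/+. The first group had the smallest spread of any member, with a coefficient of variation of 2.96%, and only replicate 2 of it exceeded a wild-type value, that of replicate 3. The log2 fold change was -0.24 ± 0.09 (SE, adjusted p = 0.144), with an interval from -0.45 to -0.03. On the FPKM scale deposited by the authors (fragments scaled by transcript length and library size), the groups were apart, at 9.92 to 10.65 against 10.93 to 14.78, as were 9.57% of all tested genes in this direction, and the limma tests of FPKM did not call it (adjusted p = 0.107 with a pseudocount of 1 and 0.103 with 0.1). Without replicate 2 labelled Tmem232+/+ the log2 fold change from counts was -0.16. The number of Sohlh1 counts per count of Sohlh2 lay at 0.147 to 0.222 in the libraries labelled Tmem232-/- and at 0.18 to 0.234 in the others. These ranges overlapped, and whether the genes differ in their change was not tested.

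Kit, the receptor gained at the start of differentiation, showed the smallest log2 fold change of the differentiation genes. Its levels were 30.6, 34.7, 35.5 and 33.5 CPM in the libraries labelled Tmem232-/- and 32.8, 40.3, 29.5 and 36.0 CPM in those labelled Tmem232+/+. The knockout-labelled values lay inside the range of the others. The log2 fold change was -0.04 ± 0.10 (SE, adjusted p = 0.811), and the interval from -0.26 to 0.17 bounds the difference. Without replicate 2 labelled Tmem232+/+ it was 0.03, and with TMM on somatic genes 0.01. Mast cell markers were near 0, with at most 4 counts in a library for any of the 4 markers in the table. The 8 Leydig cell markers summed to 449 to 635 CPM in the libraries labelled Tmem232-/- and 309 to 497 CPM in the others, with none called by edgeR, 5 higher at an unadjusted p under 0.05, and 2 called higher by DESeq2 and 1 by limma-voom. Of all tested genes, 14.6% were higher at the unadjusted limit and 10.3% were called higher by edgeR. Over all genes, DESeq2 called 1822 higher and limma-voom 1622, against 1633 by edgeR. The part of Leydig cells in the Kit level was not tested. The truncated transcript of spermatids is not counted apart from the full one in a gene total, and its part in the Kit level was not tested. Dmrt1 read 58.8, 47.0, 50.5 and 59.0 CPM in the libraries labelled Tmem232-/- and 58.4, 61.5, 76.2 and 60.3 CPM in those labelled Tmem232+/+. Its groups overlapped, with replicate 3 of the wild-type label far above the rest, and the log2 fold change was -0.25 ± 0.10 (SE, adjusted p = 0.161) with that library and -0.13 without it.

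**Figure D2:**
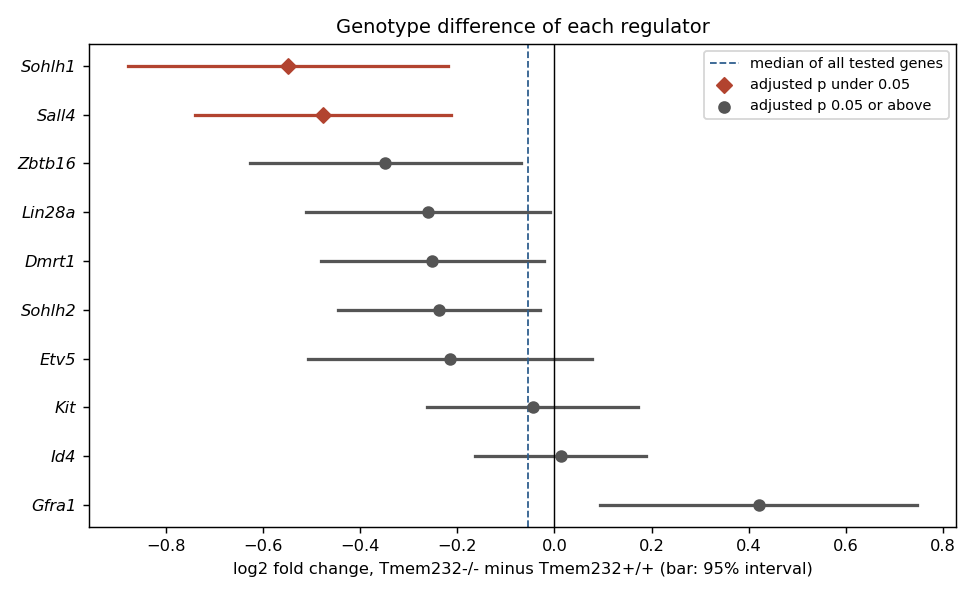
Log2 fold change of each regulator between libraries labelled Tmem232-/- and Tmem232+/+ (horizontal axis) with its 95% interval from the edgeR fit, not adjusted for multiple tests. The red diamonds are Sohlh1 (-0.55) and Sall4 (-0.48), the genes with an adjusted p under 0.05, the grey circles are the other 8 genes, of which Gfra1 is highest (0.42), and the dashed line is the median of all tested genes (-0.05).

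Read as a set, 2 of the 10 members were called lower and 0 higher by edgeR, and DESeq2 and limma-voom gave the same numbers. Of all tested genes, 1.46% were called lower and 10.3% higher. The log2 fold change was below 0 in 8 and above 0 in 2, and it lay below the median of all tested genes in 7. At an unadjusted p under 0.05, 6 members were lower and 1, Gfra1, was higher, while 10.5% of all tested genes were lower and 14.6% higher at that limit. The median log2 fold change of the members was -0.24, and that of all tested genes was -0.05. The members' summed CPM was 226 to 245 in the libraries labelled Tmem232-/- and 248 to 275 in those labelled Tmem232+/+. Set against the summed Sertoli cell markers, the members amounted to 12.9, 11.7, 11.7 and 10.1 per 100 CPM in replicates 1 to 4 of the knockout label and 11.2, 11.8, 12.0 and 11.8 in those of the wild-type label, so the ranges overlapped on this scale. Per 1000 CPM of Sertoli cell markers, Sohlh1 lay at 1.64 to 2.13 against 2.41 to 2.70 and did not overlap, Sall4 at 2.79 to 3.71 against 3.67 to 4.52 and did overlap, and Gfra1 at 3.60 to 5.74 against 2.28 to 3.50 and did not. In all, 8 members overlapped on this scale, where 0.792% of all tested genes were lower without overlap and 11.5% higher. A single gene, Clu, gave 58.2% to 62% of the Sertoli cell sum. A single library held many of the high values. Replicate 2 labelled Tmem232+/+ had the highest level of all 8 libraries for 6 members (Zbtb16, Sall4, Etv5, Lin28a, Kit and Sohlh2) and the lowest for Gfra1. Without it, Sall4 and Sohlh1 were no longer called (adjusted p = 0.0752 and 0.0721), and no other member was. Their log2 fold changes were then -0.41 and -0.56, against -0.48 and -0.55 with all 8 libraries.

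The levels of the members spanned a wide range when compared per length. On the authors' FPKM scale, Id4 was highest with a mean of 42.4 over the 8 libraries, followed by Dmrt1 with 28.6 and Sohlh2 with 11.4. Kit (6.83) and Etv5 (6.47) came next, then Sohlh1 (4.46), Lin28a (3.34) and Sall4 (2.34), and Gfra1 (1.84) and Zbtb16 (1.81) were lowest. Dmrt1 stood apart from Sohlh2, and Sohlh2 from Kit, in the sense that the ranges over the 8 libraries did not meet. The other neighbours overlapped. Id4 was nevertheless above Dmrt1 in 8 of 8 libraries, Etv5 above Sohlh1 and Lin28a above Sall4 in 8 of 8, and Sohlh1 above Lin28a in 7 of 8. The order at the low end differed between the labels. In the libraries labelled Tmem232+/+, Gfra1 lay below both Sall4 and Zbtb16 in 4 of 4. In those labelled Tmem232-/-, Sall4 was above Gfra1 in 1 of 4, and Gfra1 was above Zbtb16 in 3 of 4. Kit was above Etv5 in 4 of 4 libraries labelled Tmem232-/- and in 2 of 4 labelled Tmem232+/+, so this pair was not ordered under the wild-type label.

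**Figure D3:**
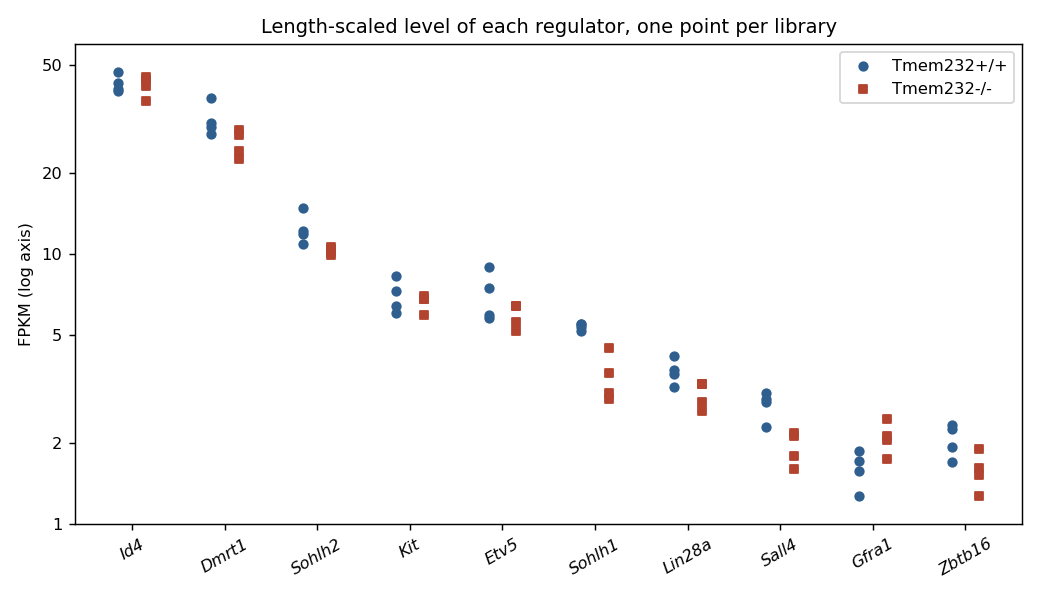
FPKM of each regulator (vertical log axis) in the 4 libraries labelled Tmem232+/+ (blue circles) and the 4 labelled Tmem232-/- (red squares), ordered by the mean over all 8 libraries. Id4 (mean 42.4) and Dmrt1 (28.6) lie highest, Gfra1 (1.84) and Zbtb16 (1.81) lowest.

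Many members share annotation, which is not separate from their choice as spermatogonial regulators. The table gives a transcription factor family for 8 of the 10, all but Gfra1 and Kit, and for 7.55% of all genes. These families are ZBTB for Zbtb16, zinc finger for Sall4, bHLH for Id4, Sohlh1 and Sohlh2, ETS for Etv5, DM for Dmrt1 and a cold shock domain for Lin28a. The process term for spermatogenesis is attached to 4 members, namely Kit, Sohlh1, Sohlh2 and Dmrt1, and to 2.5% of all genes.

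Some other genes of the differentiating spermatogonium were also called lower. In a list of 10, all 10 had a log2 fold change below 0, 4 were called lower and 0 higher by each of edgeR, DESeq2 and limma-voom, and the median was -0.33, against 1.46% of all tested genes called lower and a median of -0.05. At an unadjusted p under 0.05, 6 of the 10 were lower and 0 higher, against 10.5% of all tested genes that were lower. Crabp1, a gene for a cytoplasmic retinoic acid binding protein, read 5.99, 6.40, 6.20 and 8.61 CPM in replicates 1 to 4 labelled Tmem232-/- and 10.3, 9.93, 11.1 and 9.95 CPM in those labelled Tmem232+/+. The groups were apart, and its log2 fold change of -0.60 ± 0.13 (SE, adjusted p = 0.00963) was called in all 19 alternative analyses. Stra8, which retinoic acid induces ahead of meiosis, read 30.2, 25.0, 29.8 and 26.4 CPM against 36.8, 32.9, 40.9 and 32.1 CPM, a log2 fold change of -0.36 ± 0.10 (SE, adjusted p = 0.0382). Ccnd2, which encodes cyclin D2, read 21.4, 22.8, 22.6 and 22.7 CPM against 27.2, 34.1, 24.8 and 28.6 CPM, with -0.36 ± 0.10 (SE, adjusted p = 0.0368). Sox3, a transcription factor gene of committed spermatogonia, read 4.33, 2.70, 3.42 and 3.44 CPM against 4.98, 5.33, 4.75 and 5.34 CPM, with -0.56 ± 0.15 (SE, adjusted p = 0.0383). None of these 3 overlapped between the groups, and neither did 6.88% of all tested genes in this direction. Some markers of peritubular myoid cells, the contractile cells around the tubule, were also called. Of 6, 5 had a log2 fold change below 0, with a median of -0.35 and summed levels of 239 to 283 CPM in the libraries labelled Tmem232-/- against 270.0 to 324 CPM, which overlap. By edgeR, DESeq2 and limma-voom alike, Acta2 and Myh11 were called lower and Actg2 higher (1.20 on the log2 scale), while 1.46% of all tested genes were called lower and 10.3% higher. These genes were named here after their values were seen. Actg2 was the only 1 of the 6 above 0, where all 12 spermatid markers also lay. The cells from which the Actg2 RNA came were not told apart. The call of Acta2 ended with TMM on somatic genes (adjusted p = 0.119), for either of replicates 1 and 3 of the knockout label left out (0.0629 and 0.0608) and for replicate 1 of the wild-type label (0.12). That of Myh11 ended in the same scaling (0.185) and for replicate 1 of the wild-type label (0.0549). In these fits the log2 fold change of Acta2 lay between -0.34 and -0.30, against -0.38 in the main fit. That of Myh11 was -0.29 and -0.31, against -0.34. All 5 red blood cell genes also lay below 0 (median -0.63), at summed levels of 150.2 to 596 CPM against 305 to 595 CPM, and 0 were called by any of these tools or had an unadjusted p under 0.05. The part of these cells in the lower values of spermatogonial genes was not tested.

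The 2 most abundant genes of this list were not called, and the part of spermatocytes in their levels was not tested. Dmrtb1, a DM domain gene that acts at the switch to meiosis, had a log2 fold change of -0.08 ± 0.09 (SE, adjusted p = 0.638) at 588 to 811 CPM, and Meioc, a meiosis regulator, of -0.04 ± 0.08 (SE, adjusted p = 0.802) at 234 to 294 CPM. The calls of Stra8, Ccnd2 and Sox3 each ended in 7 to 12 of the 19 alternative analyses, among them TMM computed on somatic genes, where their adjusted p-values were 0.28, 0.135 and 0.112. Leaving out a library ended the call of Stra8 for replicates 2 and 4 labelled Tmem232-/- (0.121 and 0.0988) and replicates 1 and 3 labelled Tmem232+/+ (0.16 and 0.0999). It ended that of Ccnd2 for every library but replicate 3 labelled Tmem232+/+ (0.0646 to 0.1), and that of Sox3 for every library but replicate 1 labelled Tmem232-/- (0.0514 to 0.11). Where leaving out a library ended the call, the log2 fold change of Stra8 lay between -0.32 and -0.25. That of Ccnd2 lay between -0.37 and -0.27, and that of Sox3 between -0.56 and -0.45.

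In the list of 20 other genes of undifferentiated spermatogonia, 14 passed the filter on low counts and 0 were called by edgeR, DESeq2 or limma-voom, with a median log2 fold change of -0.07 that leaving out a library moved between -0.14 (replicate 3 of the knockout label left out) and -0.02 (replicate 1 or 3 of the wild-type label). Of these 14, 9 lay below 0 and 5 above, and at an unadjusted p under 0.05, 3 were lower and 1 was higher, where 10.5% of all tested genes were lower and 14.6% higher and the median of all was -0.05. The 6 that did not pass were Nanos2, Lhx1, Eomes, Pax7, T and Neurog3, which had at most 17 counts in a library. The most abundant were Taf4b, a subunit of a transcription initiation complex that germ cells use, with -0.12 ± 0.07 (SE, adjusted p = 0.291), and Foxo1, a transcription factor gene of stem cell maintenance, with -0.13 ± 0.12 (SE, adjusted p = 0.538).

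Among 9 ligands by which somatic cells reach spermatogonia, 7 were tested, 1 was called lower and 0 higher by edgeR, DESeq2 and limma-voom alike, with a median of -0.03. At an unadjusted p under 0.05, 2 were lower and 0 higher. Over all tested genes, 1.46% were called lower and 10.5% were lower at the unadjusted limit. Kitl, the ligand of Kit, read 44.6, 42.9, 43.6 and 52.6 CPM in the libraries labelled Tmem232-/- and 45.7, 47.8, 37.9 and 40.3 CPM in those labelled Tmem232+/+. Its log2 fold change was 0.10 ± 0.10 (SE, adjusted p = 0.558), so the receptor and its ligand both lay close to 0. Igf1 had 0.17 ± 0.11 (SE, adjusted p = 0.37). Bmp4, a ligand that acts on Kit-positive spermatogonia, read 1.46, 1.44, 1.52 and 2.46 CPM against 3.36, 2.60, 2.41 and 3.81 CPM, a log2 fold change of -0.82 ± 0.23 (SE, adjusted p = 0.0425) with replicate 4 labelled Tmem232-/- above the lowest wild-type value. It rests on 22 to 62 counts per library. Its call ended without any of replicates 1, 2 and 3 labelled Tmem232-/- (0.117, 0.128 and 0.111) or replicates 1, 2 and 4 labelled Tmem232+/+ (0.134, 0.055 and 0.13). In these fits its log2 fold change lay between -0.89 and -0.69.

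**Figure D4:**
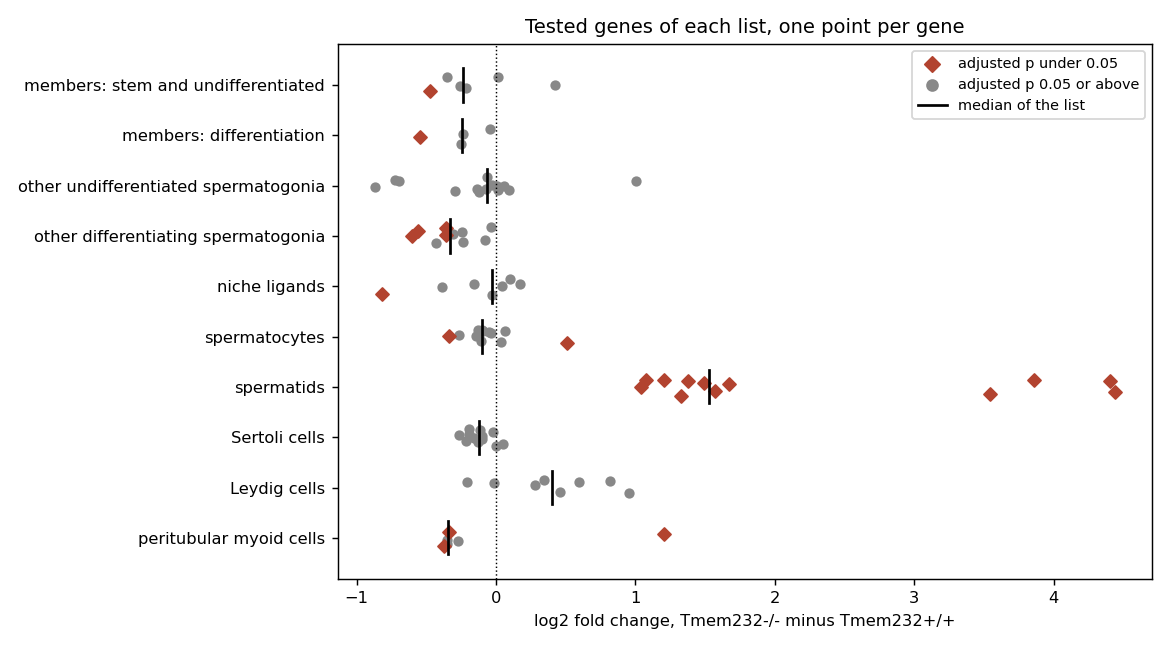
Log2 fold change (horizontal axis, libraries labelled Tmem232-/- minus Tmem232+/+) of each tested gene of the regulators and of the companion and marker lists, with 1 point per gene, red diamonds for an adjusted p under 0.05 and a black bar at the median of each list. The differentiating list has its median at -0.33 with 4 called genes below 0, the other undifferentiated genes centre at -0.07, and all 12 spermatid markers lie above 1.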

How the data were processed

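Libraries were made with the TruSeq RNA kit from the testes of 8 mice, 4 of each genotype, and sequenced in pairs of reads. The authors removed low-quality reads, aligned the rest to GRCm38.p6 with HISAT and Bowtie2 and counted genes with StringTie and featureCounts, with no versions given in the sources used here. The deposited estimated counts are not normalized, and 10.7% to 11.2% of them per library are not whole, so they were rounded. The FPKM columns, also deposited, scale the counts by transcript length and library. Group averages and the columns of the authors' DESeq2 comparison were not used.

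Differences were tested in R 4.3.3 with edgeR 4.0.16 (filterByExpr, TMM, quasi-likelihood, no covariate, Benjamini-Hochberg over 15787 genes). The steps were tested on simulated data. Alternatives were DESeq2 1.42.0, limma-voom (limma 3.58.1), DESeq2 size factors, library size alone, TMM on somatic genes, dropping the 10 most abundant genes, no filter, at least 10 counts per library throughout, limma on log2 of FPKM plus 1 or plus 0.1, a replicate block, and fits without each library in turn. Permutation tests and motif searches used Python 3.11.15.

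The members and gene lists were chosen with earlier results of these data known. The genes named were the 10 members, Tmem232, the called and the 2 most abundant genes of the companion lists, and Prm1 and Tnp1. Ret, Lin28b, Gdnf, Dmc1, Pgk2, Acta2, Myh11, Actg2 and Clu were added after their values were seen. With totals of 15428421 to 16350871 counts, members at a few CPM rest on under 100 counts in some libraries.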

Additional observations from a re-analysis of the deposited data

Results flagged for a closer look

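Among 46 groups of 4 libraries examined for a library far from its group, 2 stood out, and chance gives about 1 in 20 (2.3 here). Both were replicate 4 labelled Tmem232-/-. It read 8.61 CPM for Crabp1 and 2.46 CPM for Bmp4, above the other 3 libraries of its group, and the gap took 0.843 and 0.927 of the group's range, over Dixon's 95% limit for 4 values. None of the 10 regulators had such a library.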

How the results depend on the processing

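Over 19 alternatives, 8 of them leaving out a library, 8 members kept the sign of their log2 fold change. Id4 turned negative with library size alone (-0.0216), with FPKM plus 1 (-0.0232) and plus 0.1 (-0.0237), and ranged from -0.0346 to 0.0873 without a library. Kit was 0.00854 with TMM on somatic genes and ranged from -0.0838 to 0.0349 without a library. The members called lower numbered 2, against 1 with TMM on somatic genes, 1 without the filter, 0 with the replicate block and 0 to 2 without a library. For the other differentiating genes 4 became 1 with TMM on somatic genes, 1 without the filter, 2 with the block and 1 to 3 without a library. For the niche ligands 1 became 0 without the filter and 0 to 2 without a library, and their median log2 fold change of -0.03 became 0.0147 with TMM on somatic genes and 0.0155 without the filter, and ranged from -0.136 (without replicate 1 labelled Tmem232-/-) to -0.0248 without a library. For the other undifferentiated genes 0 became 1 without replicate 3 labelled Tmem232+/+ (range 0 to 1). The cause of these changes was not tested. Same-numbered libraries did not deviate together (r of -0.138, 0.156, -0.464 and -0.156), and other pairs had r as low as -0.42 and as high as 0.503. With 4 libraries per label these values cannot exclude that the numbers pair the mice, and the sources state no pairing. With the replicate block, the adjusted p of Sall4 was 0.0663 and of Sohlh1 0.069 (log2 fold changes -0.47 and -0.56). That of Tmem232 was 0.114, of Dmc1 0.11 and of Acta2 0.0933 (log2 fold changes 0.26, -0.34 and -0.38). Genes called lower in all numbered 230, and 28 to 466 over the alternatives. They numbered 32 with TMM on somatic genes, 71 without the filter, 28 with the replicate block and 37 to 356 without a library. Calls in all ranged from 1345 to 2097 around 1863. Sohlh1 rests on the fewest counts of the members, 52 to 98 per library.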
